A study of Drosophila melanogaster with 23 samples.

Results

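The 43 genes described here encode transcription factors and nuclear cofactors that specify tissues and organs later in Drosophila development. They were taken as a fixed list by name, among 13922 protein-coding genes of the RefSeq annotation of Release 6. Every peak whose summit lay within 10 kb of a listed gene was assigned to that gene. This gave 11921 of the 942072 deposited intervals, or 1.27%, over 22 peak lists. By textbook role, 8 of the genes act in the eye, 19 in appendages and body wall, 7 in mesoderm, heart and blood, and 9 in the nervous system and sense organs.

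A selector gene sets the identity of a tissue or body region, and its own transcription is switched on locally by enhancers that read the factors present in those cells. Most genes on this list act during organ formation or in imaginal discs, after the patterning of the early embryo, though some, such as srp, hth and tsh, are transcribed during embryonic patterning. Of the mapped factors, Bicoid (Bcd) and Caudal (Cad) pattern the head-to-tail axis, and Dorsal (Dl) and Twist (Twi) the back-to-belly axis. Zelda (Zld) and GAGA factor (GAF) are known to make closed chromatin accessible at this stage. The mark H3K4me1 is known from enhancers in general, and H3K27ac from active enhancers and promoters.

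All samples were wild-type Oregon-R embryos, 2 to 3 h after egg laying, with no mutant or treated group. The 6 factors were mapped by ChIP-nexus, an exonuclease form of chromatin immunoprecipitation, with 3 libraries each, and the 2 histone marks by ChIP-seq with 2 libraries each. Whole embryos were used, so a peak found in a few cells and a weak peak in all cells cannot be told apart. The labels do not say whether libraries came from separate embryo collections, so p-values measure only the spread between these libraries.

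The ChIP-nexus lists held 30281 to 60625 intervals, the H3K27ac lists 14975 and 14191, and the H3K4me1 lists 13403 and 6546. The second H3K4me1 list is therefore short, and the second Dl list, with 45685 intervals, was the shortest of its factor. Read depth is unknown. With whole lists, every selector gene had a summit of every factor in each library, but so did 99.5% to 100% of all genes, so this says nothing about the selector genes. The 5000 strongest summits of each ChIP-nexus library, by the authors' −log10 p, were used instead. A gene is called bound by a factor when each of its 3 libraries had such a summit within 10 kb. It is called marked when both libraries of a mark had any deposited summit there.

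Most selector genes were bound by each factor, more lacked H3K27ac than lacked H3K4me1, and H3K4me1 was far more frequent among them than among all genes. Twi bound 40 of the 43 genes, or 93.0%, against 58.1% of all genes. Bcd, Cad and Zld bound 39 each, or 90.7%, against 57.8%, 57.2% and 62.3% of all genes in that order. Dl and GAF bound 38 each, or 88.4%, against 51.4% and 50.7%. H3K27ac marked 28 genes, or 65.1%, against 79.4% of all genes. H3K4me1 marked 39 genes, or 90.7%, against 48.1%. The selector genes thus stood above the background for all 6 factors and for H3K4me1, and below it for H3K27ac.

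Single libraries gave close values. The share of selector genes with a strong summit in a library was 93.0% in each Twi library. The mean with its SD over 3 libraries was 93.8% ± 1.34 for Zld, 93.0% ± 2.33 for Bcd, 91.5% ± 1.34 for Cad, 89.9% ± 1.34 for Dl and 89.1% ± 1.34 for GAF. With H3K27ac it was 65.1% and 69.8%, and with H3K4me1 90.7% and 100%. The lower H3K4me1 value came from the short second list.

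**Figure D1:**
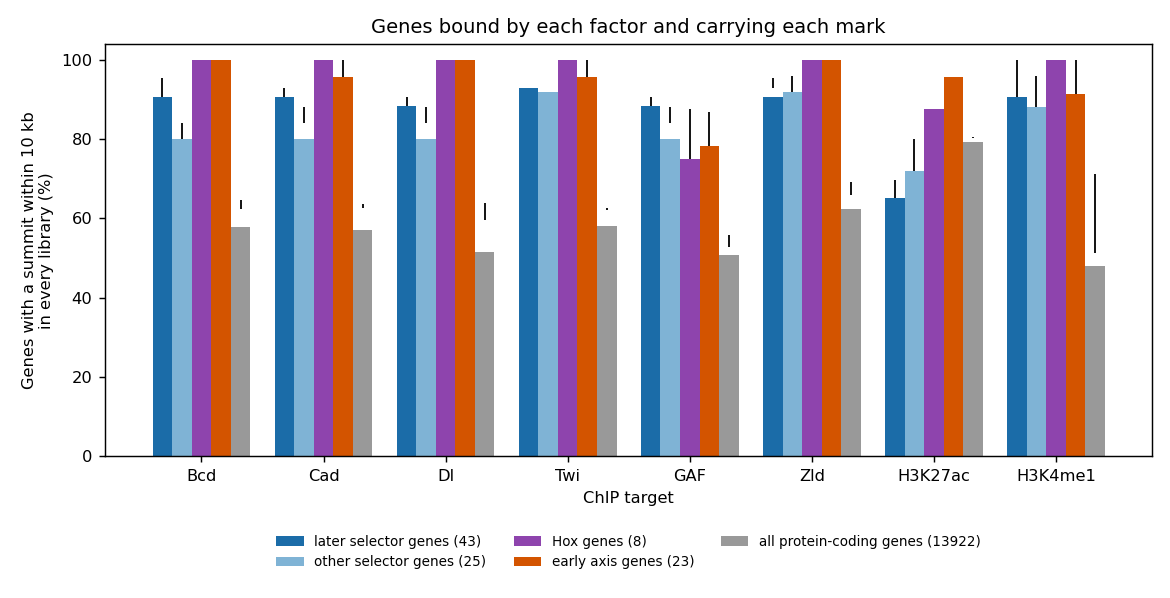
Percentage of genes (vertical axis) with a summit within 10 kb in every library of each ChIP target (horizontal axis), for 5 gene lists coloured as in the legend. Black lines span the lowest to the highest percentage in single libraries, which can lie above the bar because the bar requires all libraries. The dark blue bars of the 43 selector genes stand above the grey bars of all genes for the 6 factors and H3K4me1, and below grey for H3K27ac, at 65.1% against 79.4%.

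Selector genes were longer than the average gene and had fewer genes around them. Their median window, gene plus 10 kb on each side, was 35.2 kb, against 22.2 kb for all genes, and held a median of 1 other protein-coding gene, against 5. Per 10 kb of window, Twi had 0.708 strong summits at selector genes and 0.430 at all genes, Cad 0.630 and 0.430, Bcd 0.619 and 0.4445, GAF 0.504 and 0.3805, Dl 0.558 and 0.456, and Zld 0.584 and 0.518. Density was higher at the selector genes for every factor, least so for Zld. H3K27ac density was lower, at 1.07 against 1.58 summits per 10 kb, and H3K4me1 density was higher, at 1.89 against 0.904. With windows of equal length, 10 kb on each side of the gene midpoint, an alternative chosen after seeing the data, the order of selector genes against all genes was the same for all 8 targets. The values there were 83.7% against 51.1% for Twi, 69.8% against 54.5% for Zld, 41.9% against 73.4% for H3K27ac and 79.1% against 41.1% for H3K4me1. What part the scarcity of neighbouring genes has in the low H3K27ac share was not tested.

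**Figure D2:**
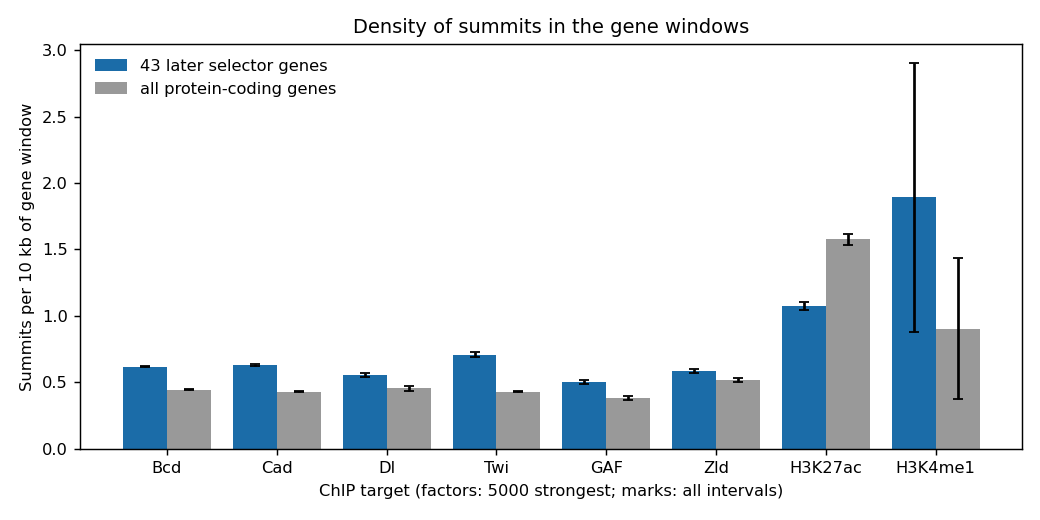
Summits per 10 kb of gene window (vertical axis) for the 43 selector genes in blue and all protein-coding genes in grey, by ChIP target. Bars are means over libraries and error bars are SDs, n = 3 for factors and n = 2 for marks. The H3K27ac bar is lower in blue than in grey, 1.07 against 1.58, and the wide H3K4me1 error bars reflect the short second list.

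At early axis genes the H3K27ac share was the higher of the marks, and at Hox genes the lower, as at the selector genes. Of 23 early axis genes, such as gap and pair-rule genes, 22, or 95.7%, had H3K27ac and 21, or 91.3%, had H3K4me1. In single libraries the H3K4me1 share there was 91.3% and 100%, and the H3K27ac share 95.7% in both. The order of the marks at early axis genes thus changed with the H3K4me1 library. Of 8 Hox genes, 7, or 87.5%, had H3K27ac and all 8, or 100%, had H3K4me1. A second list of 25 other selector genes, which shares no gene with the 43, had 72.0% and 88.0%. The factors bound 80.0% to 92.0% of those 25 genes, against 88.4% to 93.0% of the 43. GAF differed from the other factors at the axis lists, where it bound 78.3% of early axis genes and 75.0% of Hox genes, fewer than the 88.4% of the 43. These differences between short lists were not tested.

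Binding by all 6 factors was the most frequent state. Of the 43 genes, 30 were bound by all 6 factors, or 69.8%, against 19.7% of all genes. None was bound by 0 factors, against 10.2% of all genes. A further 7 were bound by 5 factors, namely ey, toe, caup, mirr, B-H2, gcm and unpg. That is 16.28%, near the 16.34% of all genes. Optix and eyg were bound by 4, and slou and sv by 3. The lowest were al, a homeobox gene of the distal leg and antenna, bound by Bcd and GAF, and salr, a spalt zinc finger gene of the wing, bound by Cad and GAF. Binding by 4, 3 and 2 factors each held for 4.65% of the 43 genes, against 14.5%, 13.8% and 12.8% of all genes in that order. Neither al nor salr carried either mark in both libraries. The 43 genes fill 38 separate windows, since the windows of otp, Rx and hbn overlap, as do those of ara and caup, and those of bap, lbe and lbl. Genes in a shared window can share a peak, and otp and Rx had the same best Bcd peak and the same best Twi peak.

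**Figure D3:**
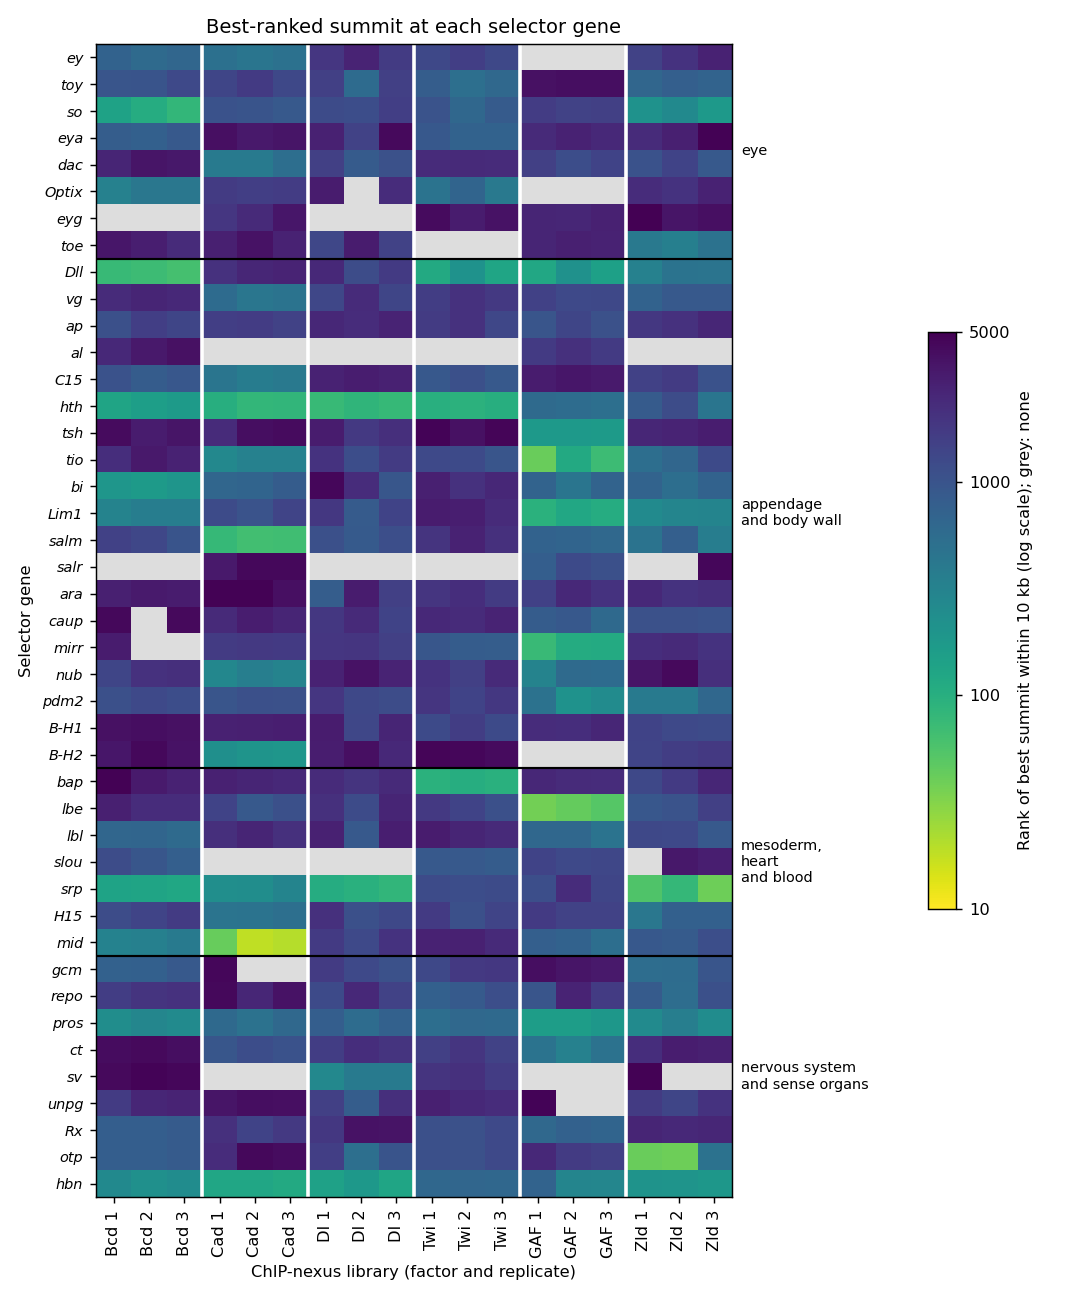
Rank of the strongest summit within 10 kb of each selector gene (rows, by role) in each of the 18 ChIP-nexus libraries (columns), on a logarithmic colour scale from 10 in yellow to 5000 in dark purple. Grey marks a gene with no summit among the 5000 strongest. Low ranks recur across the 3 libraries of a factor, as at mid for Cad and lbe for GAF, and hth, hbn, pros and srp are low for several factors.

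The rank of a summit gives its place within its own list, with 1 the strongest. It can be compared between factors as a position and not as an amount of binding. Ranks below are given for libraries 1, 2 and 3 in that order. A difference is the mean log2 rank of a factor minus the mean of the other 5 factors, with its standard error, so a negative value means a better rank. It was tested with limma on 12706 genes, which included all 43 selector genes, with Benjamini-Hochberg adjustment over all genes tested. Between 31 and 36 of the 43 genes passed the adjusted threshold of 0.05 for each factor, in either direction. The background was as large, with 75.3% of all genes called for Bcd, 73.1% for Cad, 68.3% for Dl, 76.4% for Twi, 81.7% for GAF and 75.1% for Zld. By direction, a better rank was called for 17 genes for Bcd (background 29.1%), 14 for Cad (26.4%), 6 for Dl (22.2%), 12 for Twi (30.3%), 18 for GAF (30.6%) and 16 for Zld (37.7%). A worse rank was called for 19 for Bcd (background 46.2%), 20 for Cad (46.7%), 27 for Dl (46.2%), 22 for Twi (46.1%), 16 for GAF (51.1%) and 15 for Zld (37.4%). The number of calls is thus not a result about the selector genes, and the named differences below are the ones of largest size. A stricter test for differences beyond 2 on the log2 scale, chosen after seeing the data, called 6.30% of all genes for Bcd, 2.97% for Cad, 2.63% for Dl, 6.87% for Twi, 9.93% for GAF and 7.0% for Zld. It called 2, 4, 1, 3, 6 and 3 of the 43 genes in that order. An exact two-sided permutation test over all trios of libraries called 6, 13, 1, 5, 19 and 3 of them, against 16.1%, 11.1%, 5.58%, 17.8%, 27.6% and 18.7% of all genes. Where that test ended a call printed below, its adjusted p is given with the value, and the other printed calls passed it.

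Among the eye genes, so had the strongest Bcd peak. The gene so encodes the Sine oculis homeodomain factor of the eye network. Its best Bcd ranks were 138, 107 and 82, and its best Zld ranks 210, 265 and 176. Ranks for the other 4 factors at so ran from 630 to 1675, so no other factor reached the Bcd values. The Bcd difference was −2.92 ± 0.18 (limma adjusted p = 1.69e-10), and it passed the stricter test. The peak lay at 2R:7439220-7439702, outside the gene and 4568 bp from its nearer end. This Bcd peak and overlapping peaks of other factors form a region within 500 bp of an end of a gene outside the selector list.

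The Pax6 genes ey and toy, which start the eye network, lie on chromosome 4 and differed at GAF. At toy the GAF ranks were 3746, 4001 and 4008, and ey had no strong GAF summit in any of the 3 libraries. Both were bound by the other 5 factors. The GAF difference at ey was 2.16 ± 0.17 (limma adjusted p = 2.47e-09), which fell short of the stricter test.

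The neighbouring genes eyg and toe encode related Pax-type factors and lie 29.9 kb apart. They differed in 3 calls, since toe was bound by Bcd and Dl and eyg was not, and eyg was bound by Twi and toe was not. At toe the best Zld ranks were 402, 345 and 478, against 4944, 3522 and 3846 at eyg. All 3 Zld libraries thus ranked the toe peak far above the eyg peak. The Zld difference at toe was −2.87 ± 0.20 (limma adjusted p = 8.51e-10). The toe peak lay 7638 bp outside the gene, and with a window of 5 kb the difference reversed to 0.75. This Zld peak and an overlapping Dl peak form a region within 500 bp of an end of a gene outside the selector list. The best Bcd peak at toe, 3L:12417348-12417669, also lay within 500 bp of an end of such a gene.

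Optix, a homeobox gene of eye and head, was bound by Bcd, Cad, Twi and Zld. Its Bcd ranks were 324, 423 and 422, its Twi ranks were 469, 670 and 402, and no GAF library had a strong summit there. The second Dl library also had none, while libraries 1 and 3 ranked 3144 and 2261, so Optix missed the Dl call by 1 library. The cofactor genes eya and dac, whose proteins act with So, were bound by all 6 factors. At dac the best ranks were those of Cad, at 393, 388 and 524, and at eya those of Twi, at 910, 708 and 712, and of Bcd, at 803, 747 and 873.

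Among appendage genes, Dll had the best Bcd rank of all 43 genes. Dll is the homeobox gene of the distal limb. Its Bcd ranks were 75, 71 and 63, its GAF ranks 121, 218 and 145, its Twi ranks 114, 210 and 128, and its Zld ranks 327, 472 and 455. Its Cad ranks, 2047, 2567 and 2671, and its Dl ranks, 2436, 1193 and 1727, did not overlap these. The difference was −2.91 ± 0.23 for Bcd (limma adjusted p = 4.45e-09) and 3.23 ± 0.23 for Cad (limma adjusted p = 1.86e-09), and both passed the stricter test. The Bcd call was lost in the exact permutation test (adjusted p = 0.0815). The best Bcd peak, 2R:24808424-24809026, lay 6143 bp from the gene, and the best Twi peak lay 9249 bp from it. The Bcd peak and overlapping peaks of other factors form a region within 500 bp of an end of a gene outside the 43. With a window of 5 kb both peaks dropped out, and the differences reversed to 2.22 for Bcd and 1.35 for Twi, and the Cad difference was 1.23.

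The gene hth encodes the Meis-type partner of Extradenticle and covers 132008 bp, the longest span among the 43. It ranked among the best 3 selector genes for Cad, Dl and Twi. The ranks were 102, 81 and 84 for Cad, 76, 86 and 77 for Dl, and 98, 93 and 101 for Twi. Bcd ranks there were 132, 154 and 170, so the 4 patterning factors all had peaks among their strongest 200. GAF and Zld ranks at hth were higher, between 443 and 1183. The best Dl peak, at 3R:10599945-10600487, and the best Twi peak, at 3R:10626306-10627110, were different peaks inside the gene. Per 10 kb of window hth had 0.687 strong summits per library, inside the range of the 43 genes, from 0.112 at salr to 1.15 at salm. Its Zld ranks were 834, 1183 and 443, and the Zld difference was 2.42 ± 0.21 (limma adjusted p = 1.56e-08).

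At 4 appendage genes the GAF rank was better than the mean of the other factors by the stricter test, and at 3 of them the peak lay close to a gene end. At tio, a zinc finger gene related to tsh, the GAF ranks were 41, 115 and 71. At mirr, of the Iroquois complex, they were 74, 109 and 112, and at Lim1, a LIM homeobox gene, 95, 120 and 107. At tsh, the zinc finger gene of the trunk, they were 175, 176 and 168, while the tsh ranks for the other 5 factors ran from 1764 to 4757. The GAF differences were −3.89 ± 0.27 at tio (limma adjusted p = 5.91e-10), −4.30 ± 0.16 at mirr (2.04e-13), −2.98 ± 0.19 at Lim1 (1.60e-10) and −4.21 ± 0.18 at tsh (8.44e-13). All of these passed the stricter test. The peak summits lay 119 bp from an end of tio, 193 bp from an end of mirr, 54 bp from an end of tsh and 1432 bp from an end of Lim1. Some factors had weaker peaks at these genes, that is higher rank numbers. Bcd ranked 2220, 3301 and 2748 at tio and 3143, none and none at mirr, with differences of 2.46 ± 0.27 (limma adjusted p = 3.13e-07) and 2.27 ± 0.16 (1.05e-09). In the exact permutation test neither was called (adjusted p = 0.127 and 0.191). Twi ranked 3077, 2972 and 2337 at Lim1, with a difference of 2.66 ± 0.19 (limma adjusted p = 9.80e-10), which passed the stricter test. Zld ranked 2235, 2401 and 2008 at mirr, with a difference of 1.12 ± 0.16 (limma adjusted p = 7.13e-06, exact permutation adjusted p = 0.604).

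Cad was the factor of best rank at salm and B-H2. The gene salm encodes a spalt zinc finger factor of the wing, and its Cad ranks were 77, 66 and 67. At B-H2, a BarH homeobox gene, the Cad ranks were 227, 201 and 190, while Bcd, Dl and Twi ranks there ran from 2428 to 4601. The Cad differences were −3.83 ± 0.19 at salm (limma adjusted p = 2.31e-11) and −4.02 ± 0.13 at B-H2 (7.92e-14). The salm peak, 2L:11452538-11453529, lay 7219 bp from the gene, and with a window of 5 kb the salm difference was −0.18. The B-H2 peak, X:17314159-17314593, had its summit 243 bp from an end of the gene.

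The duplicated genes salm and salr, 60.7 kb apart, differed most among the paralog pairs. Bcd, Dl, Twi and Zld bound salm and not salr. At salr no Bcd, Dl or Twi library had a strong summit, and Zld had 1 in the third library, at rank 4453. Both genes were bound by Cad and GAF, with Cad ranks of 3299, 4383 and 4323 at salr. In the Iroquois complex, ara and caup, 13.6 kb apart, differed at Bcd, which ranked 2868, 3214 and 3081 at ara and 4324, none and 4246 at caup. B-H1 had GAF ranks of 2297, 2209 and 2546, and B-H2 had none. The pairs tsh and tio, nub and pdm2, lbe and lbl, and H15 and mid were bound by all 6 factors at both members. In all, 5 of the 9 pairs differed in at least 1 call. This count depends on the 10 kb assignment and was not compared with other pairs of genes.

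The remaining appendage genes were vg, a wing selector, ap, the LIM homeobox gene of the dorsal wing, C15, bi, nub and pdm2. All were bound by all 6 factors, with best ranks from 171, for Bcd at the T-box gene bi, to 4480, for Dl at bi. The POU genes nub and pdm2 had Cad ranks of 285 to 351 and 982 to 1087, so their libraries did not overlap. Zld ranks differed in the other direction, with 393, 399 and 632 at pdm2 and 3504, 4219 and 2185 at nub. The Zld difference at nub was 1.54 ± 0.22 (limma adjusted p = 9.06e-06, exact permutation adjusted p = 0.183). At bi the Bcd ranks were 191, 171 and 198 and the Dl ranks 4480, 2290 and 951, so the Dl libraries were far apart there. The differences at bi were −2.52 ± 0.29 for Bcd (limma adjusted p = 6.26e-07) and 1.70 ± 0.29 for Dl (limma adjusted p = 7.08e-05, exact permutation adjusted p = 0.329).

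In the mesoderm, heart and blood group, mid had the best rank of any selector gene for any factor. The gene mid encodes a Tbx20-type T-box factor of the heart. Its Cad ranks were 42, 18 and 20. Its Bcd ranks were 321, 333 and 390, and its Twi ranks were 2789, 2824 and 2388. The Dl ranks at mid, 1724, 1264 and 2010, also lay above these Bcd ranks, with a Dl difference of 1.94 ± 0.21 (limma adjusted p = 7.20e-07, exact permutation adjusted p = 0.570). The Cad difference was −5.32 ± 0.21 (limma adjusted p = 1.31e-12), and the Twi difference was 2.78 ± 0.21 (limma adjusted p = 3.68e-09, exact permutation adjusted p = 0.166). The Cad peak, 2L:5473835-5474452, lay 6444 bp from mid, and with a window of 5 kb the Cad difference was −0.28, the Dl difference 0.03 and the Twi difference 0.87, of which the first pair lost the call. At the paralog H15 the Cad ranks were 463, 466 and 517.

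Twi gave a strong peak at bap, the NK3-type homeobox gene of the visceral mesoderm. Its Twi ranks were 95, 105 and 97, and its ranks for the other 5 factors ran from 1287 to 4812. All 3 Twi libraries stood apart from the other 15. The Twi difference was −4.63 ± 0.18 (limma adjusted p = 4.55e-13). The peak, 3R:21379886-21380448, lay 8764 bp from bap, and with a window of 5 kb, which leaves it out, the difference was −3.18 (limma adjusted p = 4.05e-10).

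The ladybird homeobox genes lbe and lbl of the heart and body muscles differed in GAF. At lbe the GAF ranks were 38, 43 and 52, the best of any selector gene for GAF, and at lbl they were 626, 625 and 474. The lbe difference was −5.12 ± 0.22 (limma adjusted p = 1.48e-12), and the peak summit lay 67 bp from an end of lbe. Bcd differed the other way, with 2903, 2270 and 2270 at lbe and 643, 663 and 584 at lbl, and the Bcd difference at lbe was 1.86 ± 0.22 (limma adjusted p = 1.10e-06, exact permutation adjusted p = 0.218).

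The GATA gene srp, a regulator of blood and fat body, stood high for 4 factors. Its Zld ranks were 56, 79 and 39, its Dl ranks 106, 96 and 84, its Bcd ranks 136, 133 and 124, and its Cad ranks 230, 238 and 300. Its Twi ranks were 1223, 1141 and 1209, and its GAF ranks 1115, 2250 and 1352. The Twi and GAF libraries did not overlap the other 12. The differences were −2.67 ± 0.21 for Zld (limma adjusted p = 4.24e-09, exact permutation adjusted p = 0.0881) and 3.03 ± 0.21 for GAF (limma adjusted p = 5.10e-10). With lists ranked by fold in place of −log10 p, the Zld difference was −0.60 (limma adjusted p = 0.063). The best Bcd peak, 3R:15989115-15989860, and the best Zld peak, 3R:15989061-15989687, overlapped inside the gene, 3365 and 3281 bp from its nearer end.

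The muscle identity gene slou was bound by Bcd, Twi and GAF. Its Twi ranks were 883, 887 and 819 and its Bcd ranks 1167, 959 and 762. No Cad or Dl library had a strong summit at slou, and Zld had none in the first library and ranks of 3329 and 2981 in the others.

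Among genes of the nervous system, hbn ranked among the best 3 for Dl and Zld. The gene hbn encodes a homeobox factor of the brain. Its ranks were 141, 180 and 130 for Dl, 204, 202 and 187 for Zld, 126, 125 and 115 for Cad, and 262, 219 and 243 for Bcd. GAF ranks there ran from 288 to 688 and Twi ranks from 621 to 647, so all 18 libraries placed a peak at hbn among their strongest 700. At pros, the homeobox gene of dividing neural precursors, all 18 ranks lay between 159 and 772. GAF had the best ranks there, at 159, 159 and 188.

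Zld stood out at otp, another brain homeobox gene, with ranks of 41, 39 and 479. The third library was thus far from the others. The Zld difference was −3.94 ± 0.52 (limma adjusted p = 2.89e-06), the largest standard error among the named differences. The peak, 2R:20884392-20884809, lay inside the gene, 987 bp from an end. Cad ranked 2245, 4361 and 4056 at otp, a difference of 2.33 ± 0.52 (limma adjusted p = 6.76e-04, exact permutation adjusted p = 0.148).

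Dl stood out at sv, the Pax2-type gene of sense organs. Its Dl ranks were 276, 394 and 383, its Twi ranks 1959, 2102 and 1654, and its Bcd ranks 4227, 4687 and 4517. No Cad or GAF library had a strong summit at sv, and a single Zld library did, at 4778. The Dl difference was −3.53 ± 0.11 (limma adjusted p = 7.49e-14), and the peak, 4:1112844-1113262, had its summit 270 bp inside an end of the gene. The glial genes gcm and repo differed at Cad, which ranked 4464, none and none at gcm and 4428, 2591 and 3666 at repo. At the remaining genes, ct of the external sense organs had its best ranks for GAF, at 468, 328 and 475, and unpg had its best for Dl, at 1532, 801 and 2160.

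Taking for each gene the factor with the best mean rank, GAF was that factor at 14 selector genes, or 32.6%, Cad at 11, or 25.6%, Zld at 6, or 14.0%, and Bcd, Dl and Twi at 4 each, or 9.30%. Over 12501 genes the shares were 20.4% for GAF, 13.5% for Cad, 21.5% for Zld, 17.4% for Bcd, 8.94% for Dl and 18.3% for Twi. The GAF and Cad shares were thus higher, and the Twi, Bcd and Zld shares lower, than over those genes. These differences were not tested.

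Both marks together was the most frequent state of the selector genes, and H3K4me1 without H3K27ac the next. Of the 43 genes, 26 had both marks, or 60.5%, against 45.4% of all genes. H3K4me1 in both libraries without H3K27ac in both occurred at 13, or 30.2%, against 2.67% of all genes. These 13 were eya, Optix, Dll, bi, caup, B-H1, bap, lbe, slou, mid, Rx, otp and hbn, which come from all 4 roles. Of them, 11 had no H3K27ac summit in either library, or 25.6% of the 43, against 2.28% of all genes, and bi and hbn had 1 in the first library. H3K27ac without H3K4me1 in both occurred at eyg and tsh. Among all 43, 13 had no H3K27ac summit in either library, or 30.2%, against 18.5% of all genes.

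H3K27ac without H3K4me1 occurred at 4.65% of the selector genes and 33.95% of all genes. The count of genes with H3K4me1 alone rested on the window in part. It was 13 with 10 kb, 19 with 5 kb and 24 with 2 kb, against 2.67%, 2.75% and 2.69% of all genes. It was 11 to 15 when single libraries were left out, which shows only how far the count moved. With either library enough for a mark it was also 13, against 4.20% of all genes. H3K4me1 was then found at all 43 selector genes and at 74.5% of all genes.

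**Figure D4:**
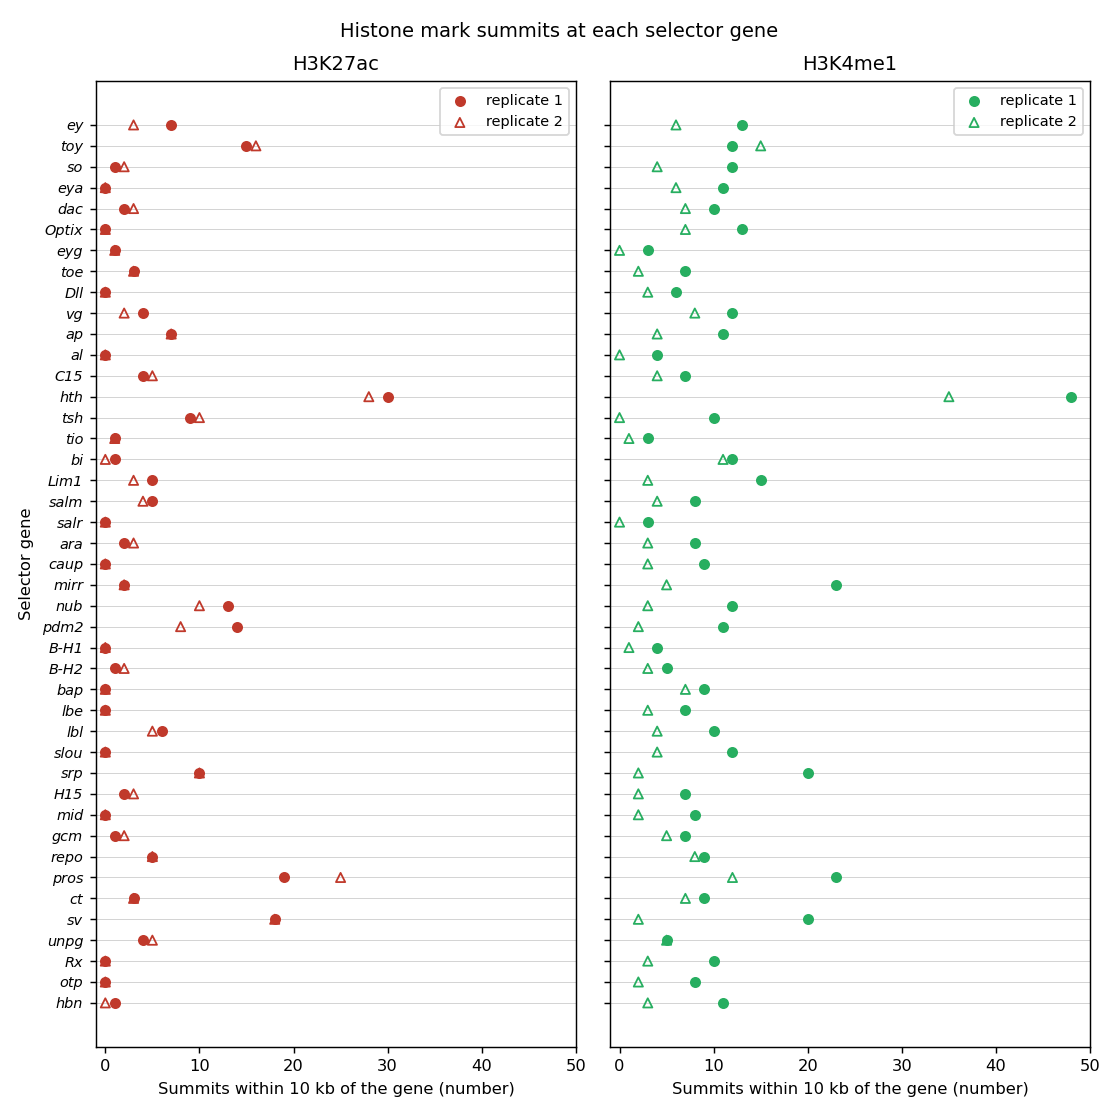
Number of H3K27ac summits (left) and H3K4me1 summits (right) within 10 kb of each selector gene (rows), with filled circles for replicate 1 and open triangles for replicate 2. H3K27ac sits at 0 in both libraries at 13 genes, among them eya, Dll and mid, while hth, pros and sv have 18 to 30. H3K4me1 of replicate 1 is above 0 at all 43 genes, and most triangles lie left of their circles.

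The number of mark summits varied widely between the genes. H3K27ac had 30 and 28 summits at hth in libraries 1 and 2, 19 and 25 at pros, 18 and 18 at sv, 15 and 16 at toy, and 10 and 10 at srp. Reproducible H3K27ac regions covered 22.5% of the hth window, 21.2% of that of toy and 18.3% of that of srp. The genes sv and toy lie on chromosome 4, and sv was bound by 3 factors, so much H3K27ac and few strong factor peaks occurred together there. H3K4me1 had 48 and 35 summits at hth, 23 and 12 at pros, 23 and 5 at mirr and 20 and 2 at srp. The short second list gave the lower count at most genes. The median share of the window covered by reproducible H3K27ac regions was 2.58% for the 43 genes, 9.24% for all genes and 29.0% for early axis genes. For H3K4me1 it was 2.54%, 0% and 4.07%.

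By role, mesoderm, heart and blood genes had the least H3K27ac, at 3 of 7 genes, namely lbl, srp and H15, with H3K4me1 at all 7. In the eye group 6 of 8 genes had H3K27ac and 7 of 8 had H3K4me1. In the appendage group the numbers were 13 and 16 of 19, and in the nervous system group 6 and 9 of 9. GAF bound 6 of 8 eye genes, 18 of 19 appendage genes, all 7 mesoderm genes and 7 of 9 nervous system genes, and Dl bound 6, 17, 6 and 9 in that order. The groups are small, and no difference between roles was tested.

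Among genes bound by all 6 factors, the share with H3K27ac was lower at the selector genes than over all genes. Of the 30 selector genes bound by all 6, 20 had H3K27ac, or 66.7%, against 97.5% of the 2747 genes so bound. H3K4me1 marked 29 of the 30, or 96.7%, against 82.7%. H3K4me1 alone was found at 10 of the 30, or 33.3%, against 1.60%. Of 16 early axis genes bound by all 6, all 16 had H3K27ac. Among 15 other selector genes so bound, 11 had it, or 73.3%, and 4 had H3K4me1 alone.

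The summits themselves showed the same arrangement. Of strong Twi summits at the selector genes, 8.76% ± 1.59 (SD, n = 3) lay in reproducible H3K27ac regions, against 31.0% ± 0.13 of all strong Twi summits. For Zld the shares were 10.3% ± 1.21 and 22.75% ± 1.31, for GAF 5.29% ± 0.66 and 15.25% ± 0.23, for Bcd 15.2% ± 1.18 and 26.99% ± 0.08, for Cad 13.7% ± 0.53 and 26.95% ± 0.25, and for Dl 16.5% ± 2.10 and 30.5% ± 2.01. The selector share was the lower one in all 3 libraries of each factor. In H3K4me1 regions the selector share was the higher one in all 3 libraries for Bcd, Dl, Twi, GAF and Zld, as for Dl with 18.2% ± 2.93 against 12.45% ± 0.80. For Cad it was 7.74% ± 0.57 against 8.01% ± 0.38, higher in 1 of 3 libraries, a difference smaller than the spread.

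Joined regions were then built by merging overlapping reproducible peaks of the 6 factors, each covered for at least 50 bp by all 3 libraries. A peak that met no other factor was kept as a region of its own. Of 13950 such regions, 255 lay at the selector genes. Regions with 1 factor made up 64.3% of the 13950 and 54.9% of the 255. Among these 255, 25.5% overlapped H3K27ac, against 44.7% of all regions, and 28.6% overlapped H3K4me1, against 14.1%. For H3K27ac the difference was widest where all 6 factors met. Of 16 such regions at the selector genes, 2 overlapped H3K27ac, or 12.5%, against 71.3% of the 223 over the genome. H3K4me1 overlapped 12 of the 16, or 75.0%, against 49.8%. With the 10000 strongest summits there were 38 such regions, and 28.9% overlapped H3K27ac, against 74.2% of 914 over the genome. With 5 factors the H3K27ac share was 57.9% of 19 regions, against 82.7%.

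**Figure D5:**
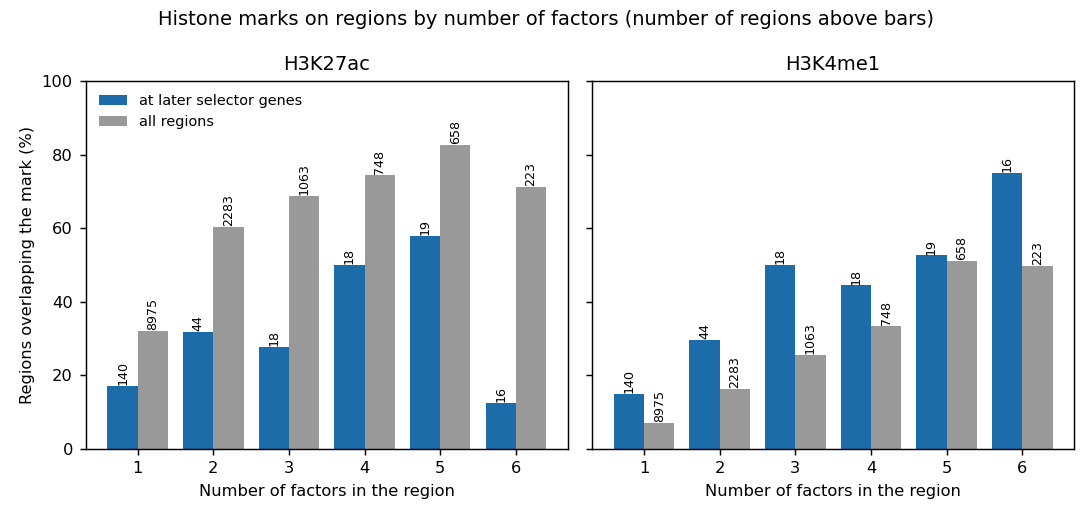
Percentage of joined regions that overlap H3K27ac (left) or H3K4me1 (right) on the vertical axis, by the number of factors in the region on the horizontal axis, at the selector genes in blue and over all regions in grey. Numbers above the bars give the regions in each bar. The blue H3K27ac bars are the lower ones in every class, down to 12.5% of 16 regions with 6 factors against 71.3% of 223.

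Most regions with all 6 factors lay at an end of a selector gene. Of the 16, 12 lay within 500 bp of a gene end, 11 of them at an end of a selector gene. H3K27ac overlapped 1 of the 12, or 8.33%. Over the genome 52.5% of such regions lay near a gene end, and 72.7% of those overlapped H3K27ac. Regions with H3K4me1 and without H3K27ac at a gene end were found at so (2R:7418404-7418882 and 2R:7419090-7419849), salm (2L:11445434-11446410), hbn (2R:20960749-20961838), vg (2R:12884254-12885340), H15 (2L:5403456-5404153), dac (2L:16485516-16486661), toy (4:989346-989917), C15 (3R:21499089-21500268) and Lim1 (X:8805614-8806218). A further one with H3K4me1 lay away from the end of salm, at 2L:11447407-11448078. Neither mark overlapped the regions at lbe (3R:21446204-21446754), tio (2L:22024213-22024889) and between otp and Rx (2R:20907159-20907988). H3K27ac overlapped the region inside hth (3R:10616861-10617488) and, together with H3K4me1, the one inside pros (3R:11352769-11353845). The annotation used gives no strand, so a gene end here is either end, and a start cannot be told from a terminus.

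The share of joined regions within 500 bp of an end of any gene was taken for each factor, and regions that hold several factors count under each. It was 50.0% of 70 regions with Dl at the selector genes, against 45.7% over the genome, 40.5% of 84 with GAF, against 34.6%, and 48.3% of 87 with Zld, against 57.3%. It was 34.4% of 93 with Bcd, against 36.9%, 31.3% of 99 with Cad, against 37.1%, and 30.4% of 112 with Twi, against 34.4%. These differences were not tested. Inside the selector gene spans, which make up 52.9% of the window length, lay 38.6% of reproducible Zld regions, 42.4% of GAF regions and 46.9% to 50.7% of those of the other 4 factors. For H3K27ac and H3K4me1 regions the share inside was 54.6% and 58.4%.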

How the data were processed

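Peak lists from 18 ChIP-nexus and 4 ChIP-seq libraries of wild-type embryos were analysed, and the single input sample was not used. Per the labels' protocols, egg lays lasted 1 h, ageing at 25 °C took 2 h, and fixation was in 1.8% formaldehyde. The submitters' processing notes name cutadapt 2.5, Bowtie2 2.3.5.1, MACS2 2.2.7.1 and the build dm6, which is Release 6. Lists are 1 per library. The deposited columns hold a whole-number score, the fold enrichment of a peak, a linear ratio, −log10 of its p-value and q-value, and its summit offset, and these are the authors' own values, used here to rank or locate peaks within a list. For GAF and Zld, file numbers and title numbers differ, so these replicate numbers are uncertain.

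Computed here, with Python 3.11.15 and R 4.3.3: the 5000 strongest summits per ChIP-nexus library on 6 chromosome arms, by −log10 p with ties broken by fold, the best rank within 10 kb of each gene, and bound and marked calls. Gene symbols and spans came from a RefSeq table, in which all 99 listed names matched. limma 3.58.1 (trend and robust) fitted factor means on log2 rank over all 18 libraries, with 5001 for a gene without a strong summit. Genes with a strong summit in at least 3 libraries were tested. The fit was also run on simulated data with lowered mean log2 ranks. That run does not show how the fit behaves where a factor has 5001 in all its libraries. A reproducible region was a stretch of at least 50 bp covered in every library of a group. Overlap between regions meant any shared base. Equal-length windows and the test beyond 2 were added after seeing the data. Alternatives are listed at the end.

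The members and lists were chosen with earlier results of these data known, so shares over the members have no p. Values in every library are given for the 3 best members per factor, for up to 3 members per factor with the largest difference in each direction, and for paralog pairs that differed. For other members bound by all 6 factors they are given as ranges and in the plot of ranks. Promoter sequences were not used here. Same-numbered libraries of different factors had r from −0.05 to 0.14, with 4 of 45 pairs over 0.1, against 1 of 90 pairs with different numbers. Not every pair passed 0.1, so the numbers were not used as pairs.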

Additional observations from a re-analysis of the deposited data

How the results depend on the processing

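Limits: the lists hold no read counts, ranks are positions and not amounts of binding, and 10 kb assigns a peak by distance alone. Every share of members bound moved with the number of summits used. In order Bcd, Cad, Dl, Twi, GAF and Zld, it was 53.5%, 55.8%, 32.6%, 55.8%, 58.1% and 62.8% with the 2000 strongest, 100%, 95.3%, 95.3%, 100%, 97.7% and 100% with the 10000 strongest, and 100% for each with all deposited intervals. It was 79.1%, 86.0%, 81.4%, 90.7%, 83.7% and 86.0% within 5 kb, 62.8%, 74.4%, 76.7%, 90.7%, 83.7% and 79.1% within 2 kb, and 74.4%, 72.1%, 65.1%, 83.7%, 67.4% and 69.8% in windows of equal length. Ranking by fold gave 83.7% for Cad, 90.7% for Dl, 86.0% for Twi, 86.0% for GAF and 93.0% for Zld. Requiring at least 2 of 3 libraries gave 90.7% for Dl and 93.0% for Zld. Leaving out single libraries gave 90.7% to 93.0% for Bcd and Zld and 88.4% to 90.7% for Dl. Members stood above all genes in each of these settings except with all deposited intervals.

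The share with H3K27ac was 48.8% with the 5000 strongest, 51.2% within 5 kb, 37.2% within 2 kb, 41.9% in equal windows, 69.8% in at least 1 library, and 65.1% to 69.8% without single libraries. It was below that of all genes each time. The share with H3K4me1 was 100% in at least 1 library, 79.1% in equal windows and 90.7% to 100% without single libraries, the highest without the short second list. H3K4me1 alone held for 13 members in the main setting, or 30.2%, against 2.67% of all genes. It held for 24 members within 2 kb, and for 11 to 15 without single libraries. With the 10000 strongest summits there were 403 regions at the members, 22.8% of them in H3K4me1, and 38 with all 6 factors.

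In the same order of factors, members called numbered 36, 34, 33, 34, 34 and 31 with limma. The shares of all genes called by limma were 75.3%, 73.1%, 68.3%, 76.4%, 81.7% and 75.1%. An exact permutation test over all trios of libraries called 6, 13, 1, 5, 19 and 3, with 16.1%, 11.1%, 5.58%, 17.8%, 27.6% and 18.7% of all genes called. The test beyond 2 called 2, 4, 1, 3, 6 and 3, with 6.3%, 2.97%, 2.63%, 6.87%, 9.93% and 7.0% of all genes called. With a replicate block the counts were 36, 34, 33, 34, 35 and 32, and none of these differed from the limma counts by over 1.5 times. Without single libraries they were 32 to 33, 33 to 34, 30 to 34, 31 to 34, 32 and 30 to 33. With so large a limma background, the counts show only how far the number of calls moved with the setting. They are not a result about the members. Of 396 alternative values for 36 named differences, 352 were on the same side of the threshold, 41 lost the call, 18 of them under the exact test, 19 under the test beyond 2, 3 within 5 kb (mid for Cad and Dl, salm for Cad) and 1 with ranking by fold (srp for Zld), and 3 reversed. The reversals among these 36 were all within 5 kb, which leaves out the peak concerned, at Dll for Bcd (2.22), Dll for Twi (1.35) and toe for Zld (0.75).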
